A study of Mus musculus with 6 samples.

Results

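The T cell receptor complex and the kinases and adaptors that act next to it were followed here at the RNA level in activated CD8+ T cells that received sphingosine-1-phosphate (S1P) or vehicle. The genes were named by symbol: the signaling chains Cd3d, Cd3e, Cd3g and Cd247, the kinases Lck and Zap70, the adaptors Lat and Lcp2, and the inhibitory receptor Cd5. All 9 were found once each among the 56941 Ensembl identifiers of the count table and all 9 passed the filter on low counts. RNA was sequenced from 6 samples, 3 per group. Splenic CD8+ T cells of B6 mice, purified as naive cells according to the labels, were activated for 3 days on plate-bound antibodies to CD3 and CD28 with recombinant IL-2 in both groups. At 24 h of activation the cultures of the S1P-treated group received S1P at 5 µM and those of the vehicle-treated group received vehicle. The study's methods name purified naive T cells or total splenocytes as starting material. The labels call the replicates biological and give neither the age of the mice nor whether animals were pooled, so the p-values measure the spread between these samples.

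The T cell receptor itself has no enzymatic activity. Its antigen-binding chains pair with the CD3 delta, epsilon and gamma chains and with the zeta chain encoded by Cd247, whose cytoplasmic tails carry the tyrosine motifs known as ITAMs. LCK, held near the coreceptor, phosphorylates these motifs, ZAP-70 docks on them and in turn phosphorylates the adaptors LAT and SLP-76 (the product of Lcp2), which gather the enzymes that start calcium, Ras and protein kinase C signaling. CD5 dampens this cascade, and its surface level is known to follow the strength of receptor signaling. The antibody to CD3 used to activate these cultures engages the complex through its CD3 chains.

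Total counts ranged from 12048880 to 17384084 per sample. One library stood apart, S1P-treated replicate 2, which had 7.80% of its counts on mitochondrially encoded genes against 4.10% to 4.93% in the other samples, and whose counts differed from those of S1P-treated replicate 1 by a chi-square statistic per gene of 27.1, against 5.39 between S1P-treated replicates 1 and 3 and 3.50 to 3.63 among vehicle-treated samples. Values without it are given beside the results it moved most. Of 13299 genes tested with edgeR's quasi-likelihood test, 23.1% were called. A call needed a Benjamini-Hochberg adjusted p no higher than 0.05 together with a log2 fold change that reached 0.3 in size, the cut-offs the study used. Values named normalized counts are counts scaled by TMM factors to the mean library size.

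The label of the samples was checked against marker transcripts. The CD8 coreceptor genes were present in every sample, but so were Cd4 and the B cell genes. Per kb of exon, Cd8a was at 57.1, 68.9 and 57.0 CPM (counts relative to library size) in vehicle-treated replicates 1, 2 and 3 and at 39.6, 36.3 and 39.2 CPM in S1P-treated replicates 1, 2 and 3, while Cd4 was at 44.8, 41.4 and 49.5 CPM and at 43.3, 56.6 and 45.9 CPM. Every S1P-treated sample was below every vehicle-treated sample for Cd8a, and the groups overlapped for Cd4. The ratio of Cd8a to Cd4 per kb was thus 1.15 to 1.66 in vehicle-treated and 0.641 to 0.913 in S1P-treated samples. Of the 7 genes listed for CD8 T cells, Cd8a and Cd8b1 were called lower, beside 10.4% of all tested genes. Cd3d and Cd3g passed the adjusted p only, and Cd3e, Trac and Trbc2 did not pass it. The summed level of this list was 1393 to 1621 CPM in vehicle-treated and 1216 to 1390 CPM in S1P-treated samples. All 10 B cell markers were detected in every sample, with a summed level of 1285 to 1578 CPM in vehicle-treated and 1359 to 1560 CPM in S1P-treated samples. All 5 markers listed for CD4 T cells were detected in every sample. Of these, 3 were called higher after S1P (Ctla4, Cd40lg and Zbtb7b), beside 12.7% of all tested genes. Activated CD8+ T cells can also express at least Ctla4 and Cd40lg. Cd4 (log2 fold change 0.10) and Foxp3 (0.02) were not called. The 5 markers summed to 474 to 562 CPM and 741 to 799 CPM, of which Ctla4 gave 204 to 333 CPM and 474 to 505 CPM. The myeloid list was carried by Cd74, which B cells express as well, and its defining genes S100a8 and S100a9 were at 0 counts while Lyz2 had at most 2. Erythroid genes had at most 12 counts. The gamma-delta T cell list and the NK cell list each had 1 of 3 tested genes called lower, beside 10.4% of all tested genes. For the gamma-delta list this was Trdc, and the sum of the list was 25.8 to 26.7 CPM and 19.9 to 24.7 CPM. For the NK list it was Eomes, which activated CD8+ T cells express as well. The sum of the NK list was 85.8 to 106 CPM and 62.4 to 74.5 CPM, of which Eomes gave 62.0 to 66.9 CPM and 31.3 to 42.1 CPM. Klrk1 gave 21.85 to 36.67 CPM and 28.7 to 30.15 CPM. The other genes of the NK list, Ncr1, Klra4, Klrb1c, Klra8 and Fcgr3, had at most 12 counts in a sample. T cells of either lineage carry the 9 genes, so their levels are not those of CD8+ T cells alone, and in such bulk samples fewer cells of a type and less RNA per cell cannot be told apart. The part of cell composition in the results was not tested.

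**Figure D1:**
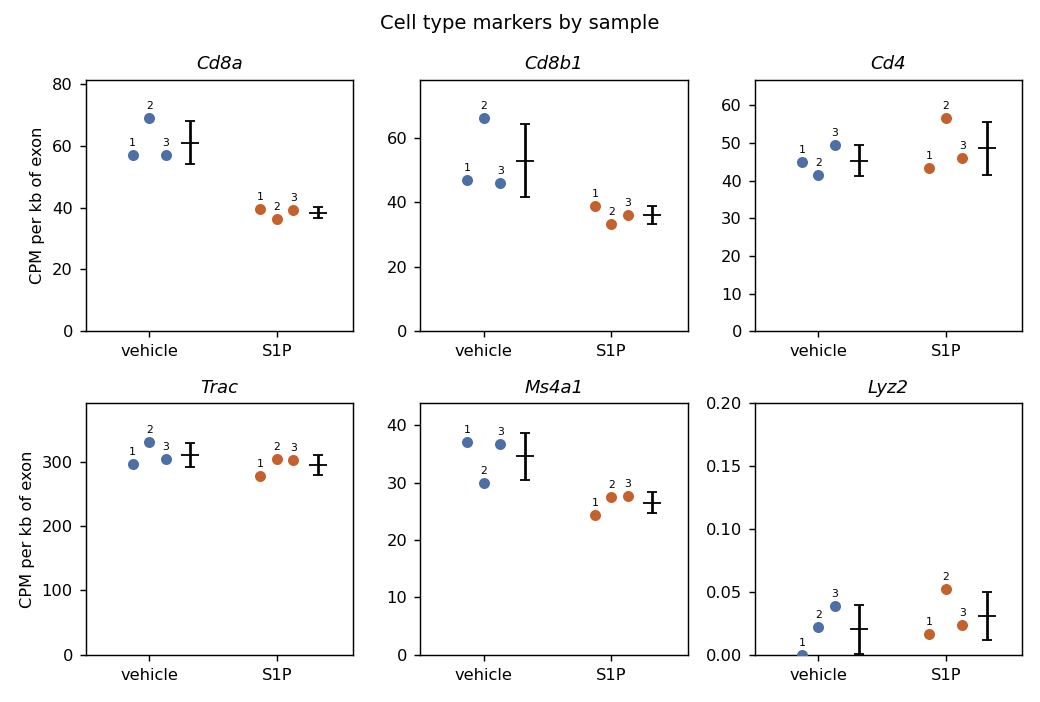
Level of 6 marker genes in CPM per kb of exon (vertical axis, from 0) in the vehicle-treated and S1P-treated samples; points are samples with their replicate number, bars are mean ± SD of 3. Cd8a and Cd8b1 were lower in all S1P-treated samples, Cd4 and Trac overlapped between the groups, the B cell gene Ms4a1 was present in all samples and the myeloid gene Lyz2 was near 0.

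The comparison of S1P-treated with vehicle-treated samples asks whether S1P changed the transcripts of the receptor complex and of its first signaling steps. None of the 9 genes was called in either direction, beside 23.1% of all tested genes. Cd3d, Lat and Cd3g were lower after S1P by the adjusted p, each with a change smaller than 0.3. The other 6 did not pass the adjusted p, and all fitted log2 fold changes lay between -0.28 and 0.15. The median log2 fold change of the 9 was -0.05, against 0.01 over all tested genes. The count of 3 past the adjusted p compares with 28.5% of all tested genes, 13.8% lower and 14.7% higher, and the same 3 genes had an unadjusted p under 0.05. DESeq2 called 1 of the 9, Cd3d, and limma-voom called 0. Vehicle-treated and S1P-treated values were fully separate for 3 genes of the 9 and for 45.6% of all tested genes. The 9 genes are well expressed, with mean counts from 1494 to 8553. Among the 2058 tested genes in this range of mean count, 23.8% were called, 38.9% passed the adjusted p and 57.8% had groups that did not overlap.

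**Figure D2:**
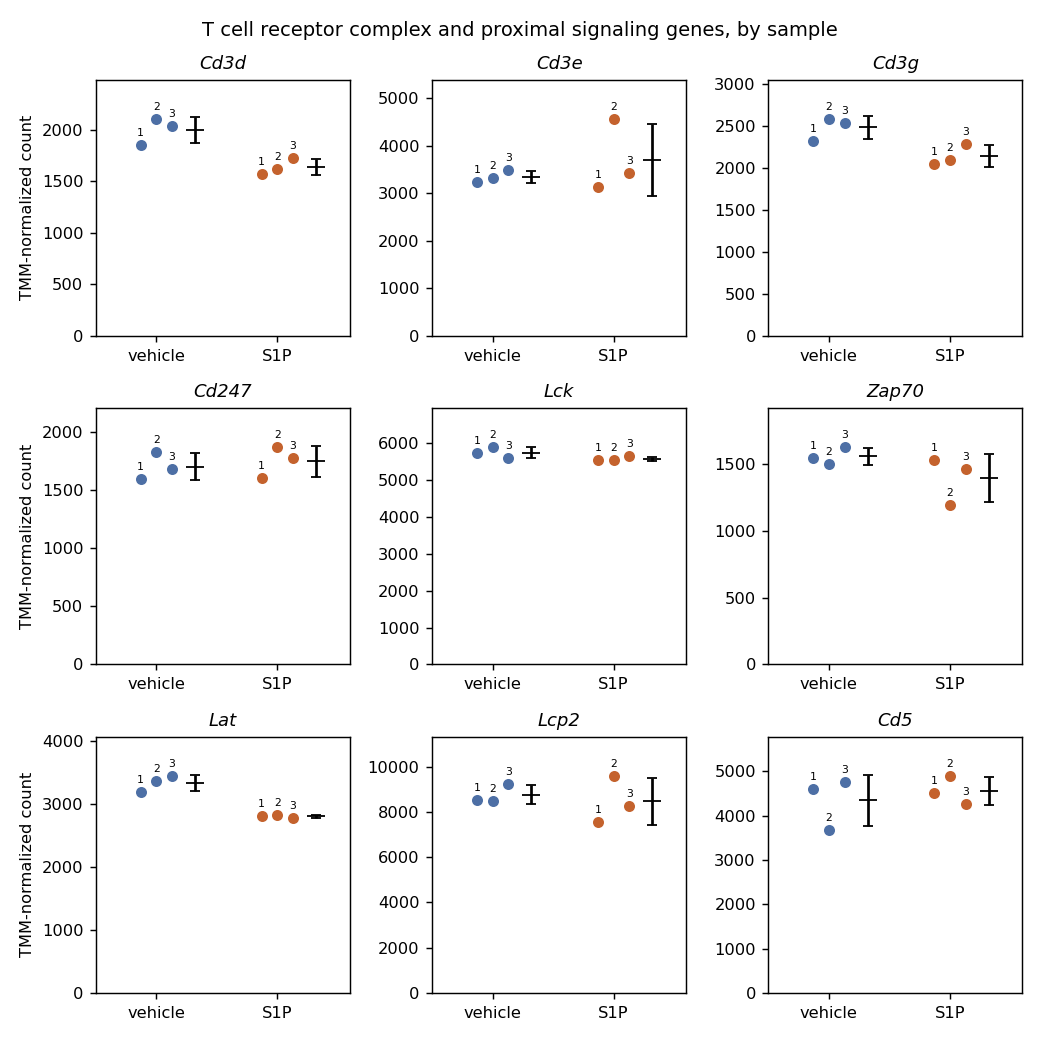
TMM-normalized counts (vertical axis, from 0) of the 9 genes in 3 vehicle-treated and 3 S1P-treated samples; points are samples with their replicate number and bars are mean ± SD. The groups were separate for Cd3d, Cd3g and Lat and overlapped for the other 6, and S1P-treated replicate 2 was the highest sample for Cd3e and the lowest for Zap70.

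Among the chains of the complex, Cd3d and Cd3g were lower after S1P while Cd3e and Cd247 did not pass the test. The genes of the CD3 chains are neighbours on mouse chromosome 9 (GRCm39). Cd3g (ENSMUSG00000002033) runs from 44880870 to 44891735 on the minus strand and Cd3d (ENSMUSG00000032094) from 44893083 to 44899173 on the plus strand, so that their starts lie head to head 1348 bases apart. Cd3e (ENSMUSG00000032093) lies further along, from 44910037 to 44920925 on the minus strand, and the 3 genes together span 40056 bases.

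Since Cd3d and Cd3g passed the adjusted p and their neighbour Cd3e did not, a difference that was not itself tested, the windows around their starts are shown, from 250 bases before the annotated start to 50 bases into the first exon. They were read from GRCm39 at the start of the GENCODE canonical transcript, 5′ to 3′ on the strand of the gene: chr9:44891686-44891985 for Cd3g, chr9:44892833-44893132 for Cd3d and chr9:44920862-44921161 for Cd3e. Capitals mark matches on either strand to 5 short motifs of factors with known roles in T cells. The letters searched were AGGAAG for the ETS family, to which ETS1 belongs. For the RUNX family, which includes RUNX3, they were TGTGGT. The E-protein letters, an E-box bound by HEB and its relatives, were CAGNTG, where N is any base. GATA factors, among them GATA3, were searched as AGATAA. The letters for NFAT, the calcium-dependent factor activated by the receptor, were TGGAAA. Matches of different motifs may overlap.
Cd3g: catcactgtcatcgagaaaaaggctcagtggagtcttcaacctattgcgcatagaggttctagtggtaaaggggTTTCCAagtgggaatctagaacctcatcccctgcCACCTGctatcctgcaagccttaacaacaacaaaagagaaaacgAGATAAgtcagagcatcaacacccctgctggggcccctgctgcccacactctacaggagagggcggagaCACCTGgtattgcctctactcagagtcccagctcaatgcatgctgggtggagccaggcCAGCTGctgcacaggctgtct
Cd3d: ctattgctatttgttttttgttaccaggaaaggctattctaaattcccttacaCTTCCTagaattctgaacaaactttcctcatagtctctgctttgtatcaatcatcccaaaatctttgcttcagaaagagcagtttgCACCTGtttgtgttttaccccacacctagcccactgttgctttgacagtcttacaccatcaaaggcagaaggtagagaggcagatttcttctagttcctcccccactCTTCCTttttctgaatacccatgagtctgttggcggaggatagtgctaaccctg
Cd3e: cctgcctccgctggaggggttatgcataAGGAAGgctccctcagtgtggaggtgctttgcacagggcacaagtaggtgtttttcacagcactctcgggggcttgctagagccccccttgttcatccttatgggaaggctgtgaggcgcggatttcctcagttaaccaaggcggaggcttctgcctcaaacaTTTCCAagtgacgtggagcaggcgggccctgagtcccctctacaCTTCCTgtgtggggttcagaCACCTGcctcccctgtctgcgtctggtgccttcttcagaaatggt
A stretch that matches on both strands was counted once. The Cd3g window held 3 E-protein matches, 1 GATA match and 1 NFAT match and no ETS match. The Cd3d window held 2 ETS matches and 1 E-protein match, and the Cd3e window 2 ETS matches, 1 E-protein match and 1 NFAT match. Such short motifs are common: of 21770 windows of protein-coding genes, 34.4% held the ETS motif, 49.1% the E-protein motif, 21.8% the NFAT motif, 15.3% the RUNX motif and 10.6% the GATA motif. Over the 9 genes, 8 windows held the ETS motif, 9 the E-protein motif, 4 the NFAT motif, 3 the GATA motif and 2 the RUNX motif. A match is a run of letters and not a site of binding, and the RNA counts do not bear on which factor acts there.

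Cd3d encodes the delta chain, which pairs with epsilon in the assembled receptor. Its normalized counts were 1852, 2105 and 2032 in vehicle-treated replicates 1, 2 and 3 and 1574, 1617 and 1727 in S1P-treated replicates 1, 2 and 3. All S1P-treated samples were below all vehicle-treated samples. The group means were 1996 ± 130 and 1639 ± 78.6 (SD, n = 3 each). The log2 fold change was -0.28 (standard error 0.07, 95% interval -0.44 to -0.13, edgeR adjusted p = 0.0129), and the level decreased by 17.9%. This gene stood at the edge of the fold change threshold. It passed both thresholds under 7 of 18 alternatives, DESeq2 (-0.30, adjusted p = 0.00227) among them, and without vehicle-treated replicate 1 (-0.34, edgeR adjusted p = 0.0199) or S1P-treated replicate 3 (-0.33, edgeR adjusted p = 0.0203), and it did not pass the adjusted p without vehicle-treated replicate 2 (0.0641) or 3 (0.0605).

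Cd3g encodes the gamma chain, the other partner of epsilon, and its tail holds a signal for internalization of the receptor. Its normalized counts were 2328, 2589 and 2542 in the vehicle-treated and 2049, 2093 and 2291 in the S1P-treated replicates, in the same order. The groups did not overlap, though the highest S1P-treated and the lowest vehicle-treated sample were close. The log2 fold change was -0.21 (standard error 0.07, 95% interval -0.37 to -0.06, edgeR adjusted p = 0.0444). With 1 library left out it stayed between -0.27 and -0.18 and passed the adjusted p in 2 of 6 fits, those without S1P-treated replicate 2 (0.0408) or 3 (0.0355), and an offset for GC content took it past both thresholds (-0.31, edgeR adjusted p = 0.00945).

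Cd3e encodes the epsilon chain, which is present in both CD3 pairs and is the chain that most activating antibodies to CD3 bind. The vehicle-treated replicates had 3234, 3317 and 3484 normalized counts, and the S1P-treated replicates 3125, 4568 and 3422. Replicates 1 and 3 of the S1P-treated group lay within or just below the vehicle-treated range, and replicate 2 lay far above it. With all samples the log2 fold change was 0.15 (standard error 0.12, 95% interval -0.11 to 0.40, edgeR adjusted p = 0.378), and without S1P-treated replicate 2 it was -0.03 (edgeR adjusted p = 0.745). An RNA on the opposite strand, Gm48719, overlaps 3.31% of the exon bases of Cd3e and had at most 55 counts in a sample.

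The proportions of the CD3 chains were compared after their values were seen. Per kb of exon, the ratio of Cd3e to Cd3d was 1.11, 0.999 and 1.09 in the vehicle-treated and 1.26, 1.79 and 1.26 in the S1P-treated replicates, so that every S1P-treated sample was higher. The ratio of Cd3d to Cd3g was 1.01, 1.03 and 1.01 and then 0.972, 0.978 and 0.953, a smaller shift. The ratio of Cd3e to Trac, the gene of the T cell receptor alpha constant region, overlapped between the groups outside S1P-treated replicate 2, at 0.167 to 0.190 in vehicle-treated samples and 0.187, 0.249 and 0.188 in S1P-treated samples. No test was made of these ratios.

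Cd247 encodes the zeta chain, which carries more ITAMs than any CD3 chain. It lies on chromosome 1 from 165616250 to 165704846 on the plus strand. Its normalized counts were 1592, 1821 and 1681 after vehicle and 1599, 1865 and 1772 after S1P. The ranges overlapped almost fully. Its log2 fold change was 0.04 (standard error 0.08, 95% interval -0.13 to 0.21, edgeR adjusted p = 0.746). Of its exon bases, 51.1% lie under Pou2f1 on the opposite strand, and the strand setting of the authors' counting is not given in the sources used here. For Pou2f1 itself the value was 0.13 (edgeR adjusted p = 0.259). Set against the mean of the CD3 chains per kb, Cd247 was at a log2 ratio of -1.44 ± 0.06 in vehicle-treated and -1.30 ± 0.02 in S1P-treated samples (SD, n = 3 each), given as a description with no test. The ratio depended on the length used. Per kb of the longest transcript it was -0.886, -0.806 and -0.928 in the vehicle-treated and -0.741, -0.808 and -0.734 in the S1P-treated replicates. With that length the groups overlapped.

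Neither kinase passed the test. Lck (ENSMUSG00000000409, chromosome 4 from 129442137 to 129467434, minus strand) encodes the kinase that starts the cascade. It had 5732, 5896 and 5603 normalized counts in vehicle-treated and 5547, 5551 and 5654 in S1P-treated replicates. These 6 values were the closest to each other of any of the 9 genes, with a coefficient of variation of 2.56% and 1.09% within the groups. The spread of the S1P-treated samples was below the 1.53% that counting error alone gives at the lowest count of Lck. It thus understates the error of that group. The log2 fold change of Lck was -0.04 (standard error 0.06, 95% interval -0.18 to 0.10, edgeR adjusted p = 0.665), an interval that excludes a change of 0.3 in either direction. The intervals of Cd247, Lcp2 and Cd5 exclude it as well. With an offset for GC content the fitted value of Lck was 0.03 (edgeR adjusted p = 0.776).

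Zap70 (ENSMUSG00000026117, chromosome 1 from 36800837 to 36821905, plus strand) encodes the kinase that binds phosphorylated ITAMs. The vehicle-treated samples had 1546, 1503 and 1627 normalized counts and the S1P-treated samples 1534, 1194 and 1466. S1P-treated replicate 2 was the low one, with 923 counted reads, and replicate 1 lay inside the vehicle-treated range. The log2 fold change of -0.15 (standard error 0.09, 95% interval -0.35 to 0.04, edgeR adjusted p = 0.223) shrank to -0.05 without S1P-treated replicate 2. Per kb, Lck was 4.17-fold above Zap70 in vehicle-treated and 4.55-fold in S1P-treated samples (log2 ratio 2.06 ± 0.09 and 2.18 ± 0.19, SD, n = 3 each). The difference of the log2 ratios between the groups was 0.12 with all samples and 0.019 without S1P-treated replicate 2.

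Of the adaptors, Lat was lower after S1P and Lcp2 did not pass the test. Lat (ENSMUSG00000030742, chromosome 7 from 125962996 to 125968810, minus strand) encodes the membrane adaptor whose phosphorylated tyrosines recruit phospholipase C gamma 1 and the GRB2 family. Its normalized counts were 3194, 3366 and 3453 after vehicle and 2816, 2829 and 2785 after S1P. The S1P-treated samples were nearly equal and all below the vehicle-treated samples. The means were 3338 ± 132 and 2810 ± 22.3 (SD, n = 3 each). The log2 fold change was -0.25 (standard error 0.06, 95% interval -0.39 to -0.11, edgeR adjusted p = 0.0129). The spread of the S1P-treated samples, 0.795% of their mean, was below the 2.14% that counting error alone gives at the lowest count of the gene, so it understates the error of that group. With 1 library left out the value stayed between -0.28 and -0.22, and the adjusted p was above 0.05 without vehicle-treated replicate 2 (0.0533) or 3 (0.0728) and with an offset for GC content (0.0625).

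The windows around the starts of Lat, lower after S1P, and of Lck, the gene with the least spread, are shown for comparison, read in the same way with the same 5 motifs in capitals: chr7:125968761-125969060 for Lat and chr4:129467385-129467684 for Lck, both on the minus strand.
Lat: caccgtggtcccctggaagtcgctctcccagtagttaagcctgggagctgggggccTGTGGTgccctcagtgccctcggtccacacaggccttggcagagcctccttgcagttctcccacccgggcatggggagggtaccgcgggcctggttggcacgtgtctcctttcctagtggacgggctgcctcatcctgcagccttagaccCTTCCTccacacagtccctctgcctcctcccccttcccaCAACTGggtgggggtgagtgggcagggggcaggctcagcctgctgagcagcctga
Lck: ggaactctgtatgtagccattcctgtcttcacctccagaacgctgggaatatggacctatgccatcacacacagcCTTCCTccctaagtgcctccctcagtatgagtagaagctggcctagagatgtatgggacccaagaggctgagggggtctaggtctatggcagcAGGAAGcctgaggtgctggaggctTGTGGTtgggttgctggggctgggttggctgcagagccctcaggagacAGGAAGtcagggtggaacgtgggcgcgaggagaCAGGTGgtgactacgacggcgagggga
The Lat window held 1 match each to the ETS, RUNX and E-protein motifs. In the Lck window there were 3 ETS matches, 1 RUNX match and 1 E-protein match. These were the only windows of the 9 with the RUNX letters, one gene being lower after S1P by the adjusted p and the other not passing it.

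Lcp2 (ENSMUSG00000002699, chromosome 11 from 33996920 to 34042426, plus strand) encodes SLP-76, which is bound to LAT through GADS and holds VAV1. It had 8541, 8492 and 9237 normalized counts in vehicle-treated and 7550, 9599 and 8264 in S1P-treated replicates. S1P-treated replicate 1 was the lowest and replicate 2 the highest of the 6 samples. A log2 fold change of -0.05 was fitted (standard error 0.09, 95% interval -0.24 to 0.15, edgeR adjusted p = 0.723), moving between -0.15 without S1P-treated replicate 2 and 0.03 without S1P-treated replicate 1. An RNA of the opposite strand, 4930469K13Rik, covers 17.7% of its exon bases and had at most 35 counts in a sample.

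Cd5 (ENSMUSG00000024669, chromosome 19 from 10694480 to 10716366, minus strand) encodes the inhibitory receptor that associates with the complex. Its normalized counts were 4592, 3678 and 4757 after vehicle and 4502, 4897 and 4256 after S1P. Vehicle-treated replicate 2 was the low sample, and the groups overlapped. The log2 fold change was 0.07 (standard error 0.10, 95% interval -0.14 to 0.28, edgeR adjusted p = 0.64) and turned to -0.04 without that replicate. A subset of B cells also expresses Cd5. The B cell sum was lowest in the same library, at 1285 CPM against 1359 to 1578 CPM in the other samples, and its part in the Cd5 value was not tested.

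**Figure D3:**
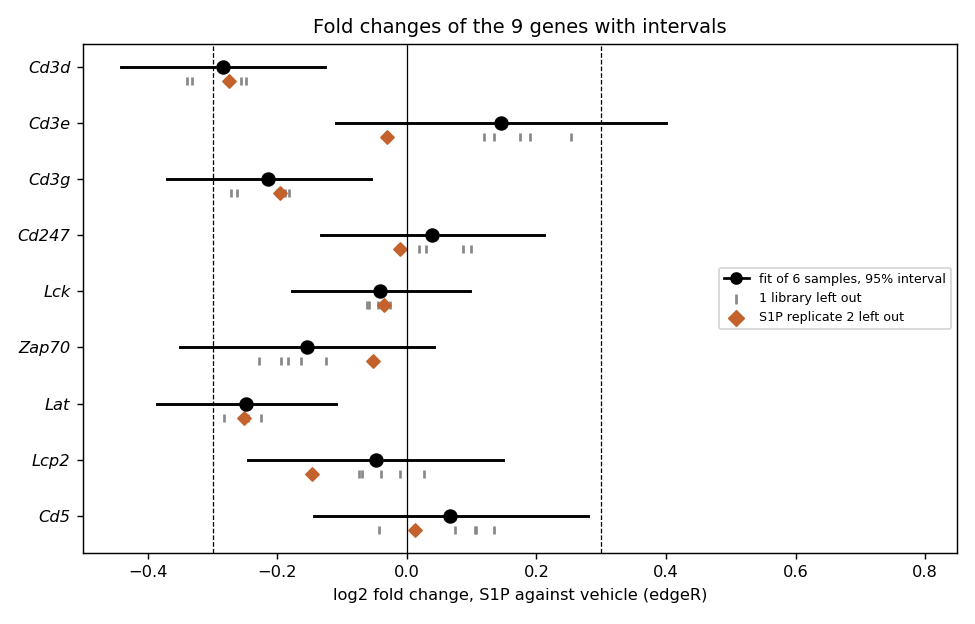
Log2 fold change of each gene, S1P against vehicle, by edgeR; black points and lines are the fit of all 6 samples with its 95% interval, grey ticks are the fits that each left out 1 library and diamonds the fit without S1P-treated replicate 2. Dashed lines mark 0.3 in size; the intervals of Cd3d, Cd3g and Lat lie below 0, and leaving out S1P-treated replicate 2 moves Cd3e, Zap70 and Lcp2 most.

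Compared per length of exon, the adaptor Lcp2 and the kinase Lck gave the most RNA of the 9 and Cd247 the least. In vehicle-treated samples the levels in CPM per kb were 129 ± 6.10 for Lcp2, 124 ± 3.16 for Lck, 79.9 ± 3.15 for Lat, 58.3 ± 7.80 for Cd5, 55.6 ± 2.12 for Cd3e, 52.3 ± 3.42 for Cd3d, 51.5 ± 2.88 for Cd3g, 29.7 ± 1.20 for Zap70 and 19.6 ± 1.33 for Cd247 (SD, n = 3 each). Neighbours whose ranges overlapped were Lcp2 and Lck, Cd5 and Cd3e, Cd3e and Cd3d, and Cd3d and Cd3g. The steps from Lck to Lat, from Lat to Cd5, from Cd3g to Zap70 and from Zap70 to Cd247 were larger than the ranges. In S1P-treated samples the order of the means was alike, except that Cd3e was above Cd5 and Cd3g above Cd3d. Lat at 67.2 ± 0.533, Cd3e at 61.6 ± 12.7 and Cd5 at 61.1 ± 4.34 CPM per kb now overlapped in part. Cd3g at 44.4 ± 2.68 and Cd3d at 43.0 ± 2.06 were below them. The length matters here. With the longest transcript in place of all exon bases, Lck was above Lcp2 in both groups, and Cd3g was above Cd3d in vehicle-treated samples as well. In S1P-treated samples the mean of Lat (92.9 CPM per kb) was then below those of Cd5 (98.9) and Cd3e (98.6). There Zap70 (39.4) was just below Cd247 (40), so that Cd247 was no longer the lowest.

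**Figure D4:**
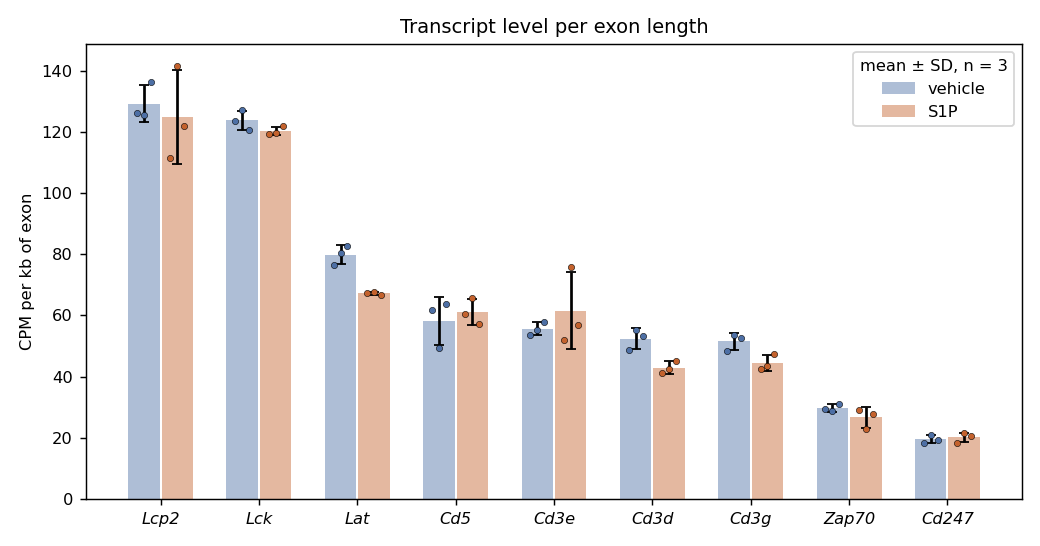
Level of the 9 genes in CPM per kb of exon (vertical axis, from 0), ordered by the vehicle-treated mean; bars are means of 3 samples with SD, points are samples. Lcp2 and Lck stood at 111 to 142 CPM per kb in every sample and Cd247 at 18.3 to 21.5.

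By the root mean square difference of centred log2 CPM over the 6 samples, the genes most like the mean profile of Cd3d, Cd3e, Cd3g and Cd247 were Ppil1 (0.0199), Rbmx (0.0203) and Pdia4 (0.0251), out of 5503 genes whose mean log2 CPM reached 5. That profile ranged from -0.16 in S1P-treated replicate 1 to 0.10 in vehicle-treated replicate 2. It is a mean over chains whose log2 fold changes differed in sign (-0.28 for Cd3d, -0.21 for Cd3g, 0.15 for Cd3e and 0.04 for Cd247). Likeness to the mean is thus not likeness to each chain.

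Other genes of T cell receptor signaling were taken from lists. The constant regions of the receptor chains, which anchor them in the membrane and associate with CD3, had 1 of 3 genes called, lower after S1P, beside 10.4% of all tested genes called lower. Trbc1 had 2400, 2523 and 2449 normalized counts after vehicle and 1903, 1392 and 1836 after S1P, a change of -0.52 on the log2 scale (standard error 0.10, edgeR adjusted p = 0.00325) that was -0.39 without S1P-treated replicate 2, the lowest sample. For Trbc2 the value was -0.14 (edgeR adjusted p = 0.31) and for Trac -0.08 (edgeR adjusted p = 0.459), with overlapping groups. Trbc1 and Trbc2 share 45.4% and 48.5% of their 31-base stretches with other genes, so the split of reads between them is uncertain.

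In the list of coreceptors and adhesion receptors of the T cell contact, 3 of 10 genes were lower and 2 higher, beside 10.4% and 12.7% of all tested genes. Cd8a, the CD8 alpha chain that brings LCK to the receptor, went from 3271 ± 367 to 2056 ± 97.1 normalized counts (SD, n = 3 each), which is -0.67 on the log2 scale (edgeR adjusted p = 0.000243). Cd8b1, the beta chain, fell by 0.55 (log2) and Slamf6, a receptor of the SLAM family, by 0.57 (edgeR adjusted p = 0.00767 and 0.000154). The value of Cd8b1 was -0.37 without vehicle-treated replicate 2, its highest sample (edgeR adjusted p = 0.0186). Cd2, an adhesion receptor, rose by 0.33 (edgeR adjusted p = 0.0131) and Cd44, a marker of activation named after its values were seen, by 0.32 (edgeR adjusted p = 0.00696). Cd28, which the other activating antibody binds, was at 0.14 (edgeR adjusted p = 0.139) and the surface glycoprotein gene Thy1 at -0.30 (edgeR adjusted p = 0.0543). The list's median was -0.12. Without S1P-treated replicate 2 the count was 4 lower and 1 higher, and with DESeq2 it was 4 lower and 2 higher. The call of Cd2 was lost when vehicle-treated replicate 1 was left out (edgeR adjusted p = 0.0695) and when S1P-treated replicate 2 was (log2 fold change 0.23). Cd44 lost its call in 5 of 18 alternatives, each time with a fitted value under 0.3 (0.27 when vehicle-treated replicate 2 was left out).

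Regulators of LCK and of ITAM phosphorylation had 2 of 11 tested genes higher and 1 lower, a share near the 23.1% called over all tested genes, with a median log2 fold change of 0.04. Csk, the kinase that inactivates LCK, had 3782, 3897 and 3984 normalized counts after vehicle and 3069, 3036 and 3094 after S1P. The groups were well apart, by -0.34 on the log2 scale (standard error 0.06; edgeR adjusted p = 0.00203), and the call was lost with an offset for GC content, with or without the replicate block (-0.27 in both). Ptpn2, a phosphatase that acts on LCK, rose by 0.43 (edgeR adjusted p = 0.00737), and by 0.30 without S1P-treated replicate 2, at the edge of the threshold, and Dusp22, another phosphatase of LCK, by 0.41 (edgeR adjusted p = 0.0188), the latter not called without vehicle-treated replicate 1 or 3 or S1P-treated replicate 3 (edgeR adjusted p = 0.0789, 0.0925 and 0.0640). Ptprc, which encodes CD45, was at -0.09 (edgeR adjusted p = 0.366) and Fyn, a kinase related to LCK, at 0.02 (edgeR adjusted p = 0.823). Lime1 was not tested, with at most 4 counts.

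Among 30 genes listed as partners of LAT and SLP-76, 10 were higher after S1P and 2 lower, with a median log2 fold change of 0.08, beside 12.7% of all tested genes called higher and 10.4% called lower. Trat1, a small transmembrane adaptor linked to the receptor complex, went from 160, 187 and 166 normalized counts after vehicle to 389, 285 and 395 after S1P. All S1P-treated samples were higher, by 1.07 on the log2 scale (standard error 0.13; edgeR adjusted p = 0.000233). Malt1, a protease on the path to NF-kB, had 5174, 5046 and 4897 normalized counts after vehicle and 7950, 10225 and 7622 after S1P (log2 fold change 0.77, edgeR adjusted p = 0.000325, and 0.63 without S1P-treated replicate 2). Tec, a cytoplasmic tyrosine kinase, rose by 0.71 (edgeR adjusted p = 0.0015), and the docking protein gene Gab2 by 0.85 at low counts of at most 38 (edgeR adjusted p = 0.0269). Wipf1, an uncalled gene with a high count, had a log2 fold change of 0.14. The 2 lower genes were Map4k1, a kinase that restrains SLP-76, with -0.36 (edgeR adjusted p = 0.00464), and Prkcq, the protein kinase C of the T cell contact, with -0.34 (edgeR adjusted p = 0.00228), both named after their values were seen. The call of Map4k1 was lost with an offset for GC content, with or without the replicate block (-0.29 in both).

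Without S1P-treated replicate 2 the count was 8 higher and 2 lower, and with DESeq2 also 8 and 2. Gab2 was not called with DESeq2 (adjusted p = 0.0989) or in 4 of the 6 fits that left out 1 library, those without vehicle-treated replicate 1 or 2 or S1P-treated replicate 2 or 3, while Trat1, Malt1 and Tec were called under all 18 alternatives.

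The list of negative regulators downstream of the receptor had 4 of 19 genes called lower and 0 called higher, beside 10.4% and 12.7% of all tested genes. Its median was -0.19 on the log2 scale. By the adjusted p alone another 5 passed, of which Cblb (0.26) and Rasa2 (0.24) were higher and Dok2, Ptpn11 and Socs6 lower, all but Cblb named after their values were seen. Lax1, an adaptor that resembles LAT and restrains signaling, had 735, 855 and 836 normalized counts after vehicle and 528, 492 and 523 after S1P. The groups were separate, by -0.65 on the log2 scale (standard error 0.08; edgeR adjusted p = 0.000255). Dgkz, which consumes the second messenger diacylglycerol, fell by 0.43, Sla2 by 0.41 and Ubash3a, both of which limit receptor signaling, by 0.41 (edgeR adjusted p = 0.00222, 0.0286 and 0.00134). The ubiquitin ligase gene Cbl was at -0.19 (edgeR adjusted p = 0.147). Without S1P-treated replicate 1 the count rose to 7, and Sla2 was not called with DESeq2 (adjusted p = 0.0533) or without vehicle-treated replicate 1 or 2 or S1P-treated replicate 3 (edgeR adjusted p = 0.085, 0.105 and 0.0843).

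Signaling chains of other receptors and Syk, the relative of Zap70 that B cells use, did not pass the test or were too low to be tested. On the log2 scale Syk was at 0.17 (edgeR adjusted p = 0.259) and Hcst, whose product has no ITAM, at -0.12 (edgeR adjusted p = 0.783). Fcer1g had at most 20 counts and was at 0.68 (edgeR adjusted p = 0.111), and Tyrobp, with at most 16 counts, was not tested.

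**Figure D5:**
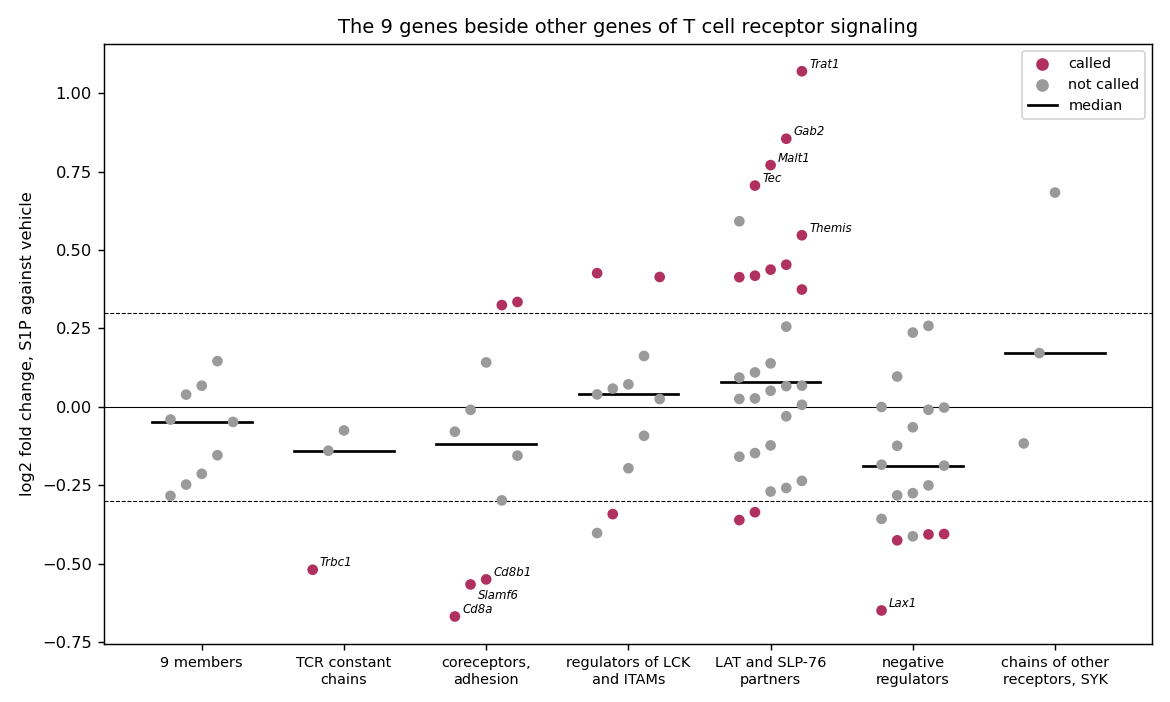
Log2 fold change, S1P against vehicle (vertical axis), of the 9 genes and of 6 lists of other genes of the pathway; each point is a gene, colored points are called (dashed lines mark 0.3 in size), and black bars are medians. The 9 genes lie between -0.28 and 0.15 with none called, and the partners of LAT and SLP-76 reach 1.07.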

How the data were processed

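RNA-seq counts of 3 vehicle-treated and 3 S1P-treated samples were analysed, grouped by the sample titles. Libraries were strand-specific, from poly(A) RNA. The authors used Trim Galore for trimming, STAR for alignment and featureCounts for gene counts, on GRCm39 per the submitters' processing notes. The deposited values are whole-number counts, not normalized. Versions, the annotation release and the strand setting are not given in the sources used here. Identifiers were matched to GENCODE vM39 of GRCm39, which holds 56323 of 56941.

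edgeR 4.0.16 (R 4.3.3) filtered low counts with filterByExpr, normalized by TMM and tested treatment with the quasi-likelihood test over all 6 samples, with Benjamini-Hochberg adjustment over 13299 genes. Standard errors were derived from the F statistic. Thresholds were 0.05 for the adjusted p and 0.3 for the size of the log2 fold change. Alternatives used DESeq2 1.42.0, limma-voom (limma 3.58.1), other factors, filters and thresholds, a GC offset (lowess span 0.3), the replicate number as a block, and each library left out. On simulated data edgeR recovered 163 of 200 changed genes of 13090, with 14 false calls. The share of changed genes set there was far below the 23.1% of genes called in the real samples. The simulation therefore does not give the error rates of the fit of these samples. Counting errors cover the reads only, and molecular identifiers are not mentioned in the sources.

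The members and lists were chosen with earlier results of these data known. All 9 members are named, and of each list the called genes, at most 4 by size of change, and the 2 uncalled genes with most counts, of which 1 is not reported here.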

Additional observations from a re-analysis of the deposited data

How the results depend on the processing

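Over 18 alternatives for each of the 9 genes, 146 of 162 values kept their direction and stayed uncalled, 9 went past both thresholds and 7 changed sign. By the adjusted p alone, Cd3d passed in 16 of 18 alternatives, Lat in 14 and Cd3g in 12. The number of genes called among the 9, all lower, was 3 with no fold change threshold, 1 with total count only, 1 with no filter on low counts, 1 with DESeq2, 2 with the GC offset and 2 with that offset and the replicate block, and 0 to 1 with 1 library left out. The sign turned for Cd3e (-0.031 without S1P-treated replicate 2, range -0.031 to 0.25), Cd247 (-0.0090 when vehicle-treated replicate 1 was left out and -0.010 for S1P-treated replicate 2, range -0.01 to 0.10), Lck (0.027 with the GC offset, with or without the replicate block), Lcp2 (0.027 without S1P-treated replicate 1, range -0.15 to 0.027) and Cd5 (-0.043 without vehicle-treated replicate 2, range -0.043 to 0.14). None of these passed the adjusted p, and the cause was not tested. With a log2 fold change of at least 1, 465 genes were called over all, 383 higher and 82 lower, with 1 partner of LAT and SLP-76 and 0 in each of the other lists. Negative regulators numbered 9 with no fold change threshold and 3 to 7 with 1 library left out. Per kb of the longest transcript the vehicle-treated means were 178 for Lck, 157 for Lcp2, 110 for Lat, 94.3 for Cd5, 89.0 for Cd3e, 66.4 for Cd3g, 58.4 for Cd3d, 44.0 for Zap70 and 39.0 for Cd247. Same-numbered samples did not deviate together throughout (r = 0.12, -0.0060 and 0.048 across genes for numbers 1, 2 and 3, and not every sample was closest to its own number). With 3 samples per group, such correlations cannot tell whether same-numbered samples shared an animal or a culture day. The main fit did not pair them. With the replicate block 0 of the 9 genes were called, as without it, and Cd3d was at -0.28. No gene of the 9 is limited by depth, since the lowest count was 923; for genes under about 50 counts, such as Gab2 and Fcer1g, counting error limits the precision.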

Other observations

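The cultures also held transcripts of the B cell receptor, the counterpart of the T cell receptor complex in B cells, which were named here after their values were seen. Cd79a and Cd79b, its ITAM-bearing chains, had log2 fold changes of -0.11 (edgeR adjusted p = 0.364) and -0.27 (edgeR adjusted p = 0.0778), and Blnk, the relative of SLP-76 in B cells, had 0.16 (edgeR adjusted p = 0.346). Of the 10 B cell markers, 2 were called lower and 1 higher, beside 10.4% and 12.7% of all tested genes. Cd22, an inhibitory receptor, fell by 0.44 and Ms4a1, which encodes CD20, by 0.39, while Ebf1, a transcription factor of the lineage, rose by 0.60 (edgeR adjusted p = 0.00642, 0.00889 and 0.00235). Trdc, the constant region of the T cell receptor delta chain, fell by 0.35 (edgeR adjusted p = 0.0252), from 216 ± 6.09 to 170 ± 5.51 normalized counts (SD, n = 3 each). S1pr1, which encodes a receptor of the added lipid, was at 154, 164 and 150 normalized counts after vehicle and 192, 211 and 189 after S1P (log2 fold change 0.34, edgeR adjusted p = 0.0405).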
